A study of Mus musculus with 6 samples.

Results

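The nuclear genes of oxidative phosphorylation were followed through a table of accessible chromatin regions from mouse embryonic stem cells. The set held 106 of 21887 protein-coding nuclear genes: those whose symbol begins with Nduf, Uqcr, Atp5 or Cox followed by a digit, together with Sdha, Sdhb, Sdhc, Sdhd and Cyc1. A region was assigned to a gene when its midpoint lay within 2.5 kb of either annotated limit of the gene on mm10. By this rule 100 of the 106 genes had a region, and these genes held 138 of the 69689 regions in the table.

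The cells were R1, a mouse embryonic stem cell line labelled WT, grown on fibroblast feeders in serum medium with LIF and the inhibitors CHIR-99021 and PD0325901. Feeder cells were removed by replating before the assay. Accessibility was read by ACC-seq, in which the transposase Tn5 cuts open DNA and adds sequencing adapters. There were 6 libraries in 3 groups of 2: Fix_1,6-Hex, Fix and Fresh. Fix_1,6-Hex cells were exposed to 10% (w/v) 1,6-hexanediol, an alcohol that disperses many condensates of proteins and RNA, starting 30 s ahead of fixation and lasting through it. Both fixed groups received 1% formaldehyde for 10 min and were tagmented at 55 °C, and Fresh nuclei were tagmented unfixed at 37 °C, for 30 min in each group. The study's aim, per its design text, was to see how open chromatin changes when the occupancy of condensates is altered.

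The table gives each region a position and the name of 1 of 9 clusters made by the authors, and no value per library. Changes between Fix_1,6-Hex, Fix and Fresh cells therefore could not be tested, the depth is unknown, and the sources used here do not say what accessibility pattern a cluster stands for. Comparisons were made between the respiratory genes and the other 21781 protein-coding genes, as counts and medians without a test, because genes of a single table are not replicates. Intervals are exact 95% binomial intervals that cover counting error only and treat genes as independent, although neighbouring genes can share a region. All 8 stem cell marker genes examined had a region, and Pou5f1, which encodes the pluripotency factor Oct4, had the widest of them, at 7835 bp. Of 8 fibroblast markers 6 had a region too, as did all 3 neuron markers, all 3 muscle markers and 2 of 3 blood markers, set beside 69.7% of the protein-coding genes that are not respiratory. Among marker genes with a start entry, a region lay over the start of 7 of 7 stem cell genes, 3 of 5 fibroblast genes, 2 of 2 neuron genes, 0 of 2 muscle genes and 0 of 1 blood gene, set beside 61.2% of genes that are not respiratory. These small counts are a description of the lists.

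Oxidative phosphorylation passes electrons from NADH and succinate along complexes I, II, III and IV of the inner mitochondrial membrane to oxygen, and complex V uses the resulting proton gradient to make ATP. Most subunits are encoded in the nucleus and a few in mitochondrial DNA, so transcription from both genomes has to be matched. Factors such as NRF1, the ETS family factor GABP, YY1 and Sp1 are known to act at promoters of the nuclear genes, which are active in nearly all tissues, and a few complex IV subunits also exist in versions restricted to muscle, lung or testis.

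Nearly every respiratory gene carried accessible chromatin at a limit. The share was 94.3% of the respiratory genes (100 of 106, interval 88.1% to 97.9%), against 69.7% of the other protein-coding genes (15174 of 21781). With regions that were also assigned to another gene left out, the shares were 56.6% and 53.6%. Of the 100 genes, 67 had 1 region, 28 had 2 and 5 had 3, so 33.0% had 2 or more, against 34.2% of the other genes with a region. The nearest region lay under 500 bp from a gene limit at 83 genes, and 95 of the 138 regions covered a limit. The respiratory genes were shorter, with a median length of 7312 bp, against 17250 bp for other protein-coding genes. The genes lay on 19 chromosomes, no region was assigned to more than 1 of them, and Ndufs8 and Ndufv1 lay 94725 bp apart.

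The 6 genes without a region by the rule were Cox5a, Cox7a2, Cox8b, Cox8c, Ndufb4b and Ndufb4c. Just outside the limit, the nearest midpoint lay 3002 bp from Cox8b, 3257 bp from Cox7a2 and 3914 bp from Cox5a. It lay 17357 bp away at Ndufb4c, 21280.5 bp at Cox8c and 33543 bp at Ndufb4b. Just inside the limit were Ndufa7 at 2497 bp, Cox7b2 at 2389.5 bp and Cox6a2 at 2069.5 bp.

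At 4 genes the annotated start lay inside a region that the rule did not catch. At Cox5a, Cox7a2 and Atp5d the start in the promoter table lies well within the gene limits, and at Ndufa7 the region is so wide that its midpoint falls outside the window. The start of Cox5a, a subunit of complex IV present in all tissues, lay in a cluster 6 region of 3654 bp (chr9:57520481-57524134). The start of Cox7a2, the broadly expressed partner of a muscle subunit, lay in a cluster 5 region of 694 bp (chr9:79759463-79760156). The start of Atp5d, the delta subunit of the ATP synthase stalk, lay in a cluster 3 region of 1843 bp, and that of Ndufa7, an accessory subunit of complex I, in a cluster 6 region of 7976 bp that also covers the start of the ribosomal gene Rps28. Counted by starts, 82 of 85 respiratory genes with an entry in the promoter table had a region over a start (96.5%, interval 90.0% to 99.3%), against 61.2% of other genes (10658 of 17407). The share was 97.1% for mitochondrial ribosomal, 96.9% for cytoplasmic ribosomal and 93.8% for proteasome genes. The 3 respiratory exceptions were Cox7b2, Cox8b and Ndufb4b, whose starts lay 2290, 2742 and 33172 bp from the edge of the nearest region. Genes whose starts were not analysed here included Ndufa2, Ndufb4c, Ndufb9, Ndufaf6, Ndufs1, Sdhc, Cyc1, Uqcrb, Uqcrc2, Uqcrq, Cox4i1, Cox4i2, Cox6a2, Cox6c, Cox8c, Ndufa4l2, Cox17, Cox18, Atp5a1 and Atp5mpl.

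**Figure D1:**
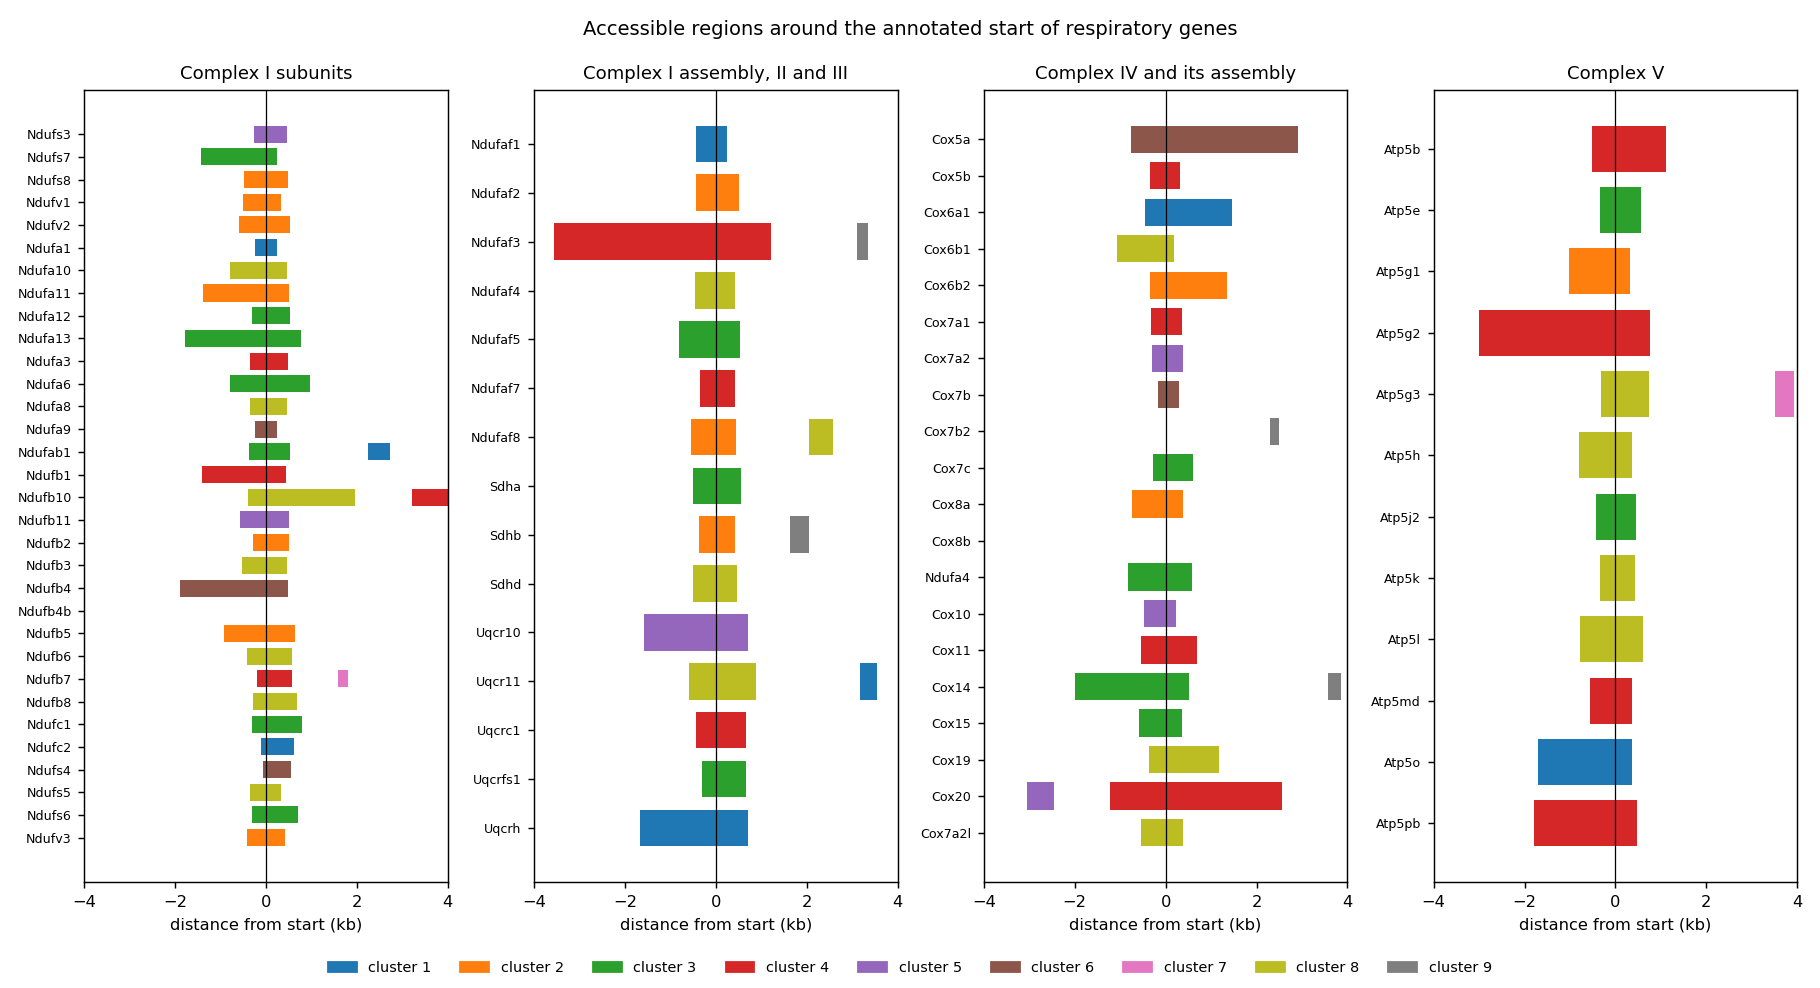
Accessible regions around the start of the 79 respiratory genes with 1 start entry, in panels by complex. The horizontal axis is the distance from the start in kb with transcription running to the right, each bar is a region to scale and its colour is the cluster; nearly all starts lie inside a bar, and those of Cox7b2, Cox8b and Ndufb4b do not.

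Clusters 3 and 8 were the most frequent at respiratory genes, followed by cluster 4. A region of cluster 3 was present at 23 of the 100 genes (15.2% to 32.5%), against 14.2% of other genes with a region. Cluster 4 was present at 20 genes (12.7% to 29.2%), against 13.6%, and cluster 2 at 15 genes (8.65% to 23.5%), against 9.19%. Any of these 3 clusters was present at 57 genes (57.0%, 46.7% to 66.9%), against 35.9% of other genes. Clusters 2, 3 and 4 were put together with earlier results of these data known, so their joint interval is a description and no support. The interval for cluster 3 alone lay above the share of the other genes, and those for clusters 2 and 4 included it. Cluster 3 was present at 23.1% of mitochondrial ribosomal, 27.7% of cytoplasmic ribosomal and 17.9% of proteasome genes with a region. Any of the 3 clusters was present at 52.6%, 62.7% and 46.2% of the genes in these sets.

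Cluster 1 ran the other way, with 14 of 100 respiratory genes (7.87% to 22.4%), against 27.3% of other genes. It was present at 11.5% of mitochondrial ribosomal, 24.1% of cytoplasmic ribosomal and 23.1% of proteasome genes with a region. The remaining clusters lay nearer to the other genes. Cluster 8 was present at 23 genes, against 25.5%, cluster 9 at 13 genes, against 17.9%, and cluster 7 at 8 genes, against 10.5%. Cluster 6 was present at 11 genes, against 10.2%, and cluster 5 at 6 genes, against 5.5%. The intervals of these 5 clusters included the share of the other genes. Regions of only 1 cluster were found at 69 of the 100 genes, but 67 genes had a single region and so could have only 1 cluster. A single region was also found at 9990 of the 15174 other genes with a region.

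Respiratory genes shared their regions with neighbouring genes at 53 of 100 genes (53.0%, 42.8% to 63.1%), against 35.5% of other genes. The share was 53.8% for mitochondrial ribosomal, 48.2% for cytoplasmic ribosomal and 46.2% for proteasome genes, each inside this interval. The cluster shares moved with the sharing of regions. Of the 63 shared regions at respiratory genes 57.1% were of clusters 2, 3 or 4, and of the 75 unshared regions 29.3%, against 36.1% and 22.5% of shared and unshared regions at other genes. With shared regions left out, 60 respiratory genes kept a region and 36.7% of these had one of clusters 2, 3 or 4, against 28.2% of other genes. How much of the 57.0% goes with shared regions was not tested.

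**Figure D2:**
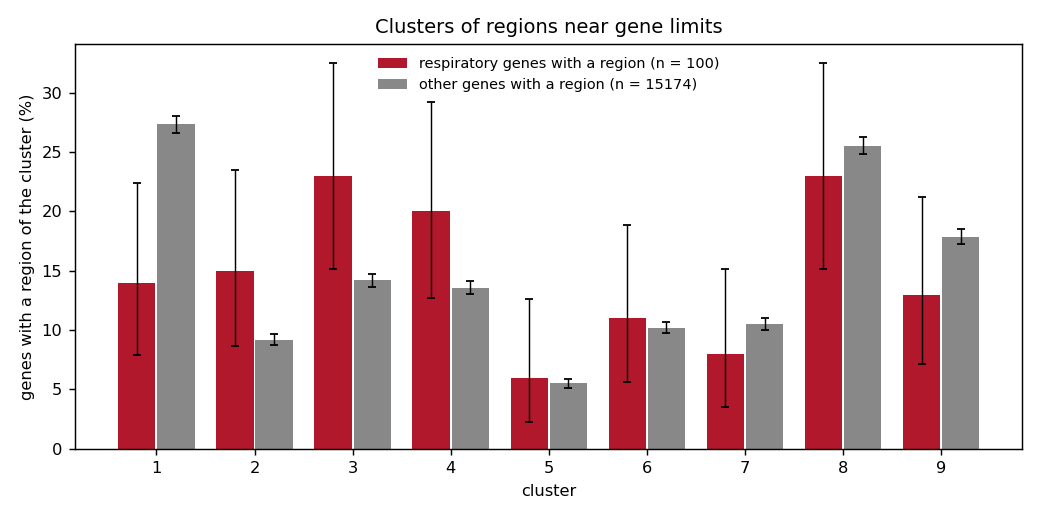
Percent of genes with at least 1 region of each cluster, for the 100 respiratory genes (left bar of each pair) and the 15174 other genes with a region (right bar), with exact 95% binomial intervals as error bars. Clusters 2, 3 and 4 stand at 15, 23 and 20% of respiratory genes, against 9.19, 14.2 and 13.6% of other genes, and cluster 1 at 14%, against 27.3%.

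Complex I, the NADH dehydrogenase, had a region at all 7 nuclear core subunits. The subunits of the NADH-binding arm were Ndufv1, which holds the flavin and the NADH site, with a cluster 2 region of 823 bp, Ndufv2, with a cluster 2 region of 1125 bp over its start, and Ndufs1, with a cluster 5 region of 1543 bp. Ndufv2 had a second region, of cluster 3 and 1557 bp, at its other limit, which it shares with Ankrd12. The subunits nearer to the quinone site included Ndufs3 (cluster 5, 726 bp), Ndufs7 (cluster 3, 1679 bp) and Ndufs8 (cluster 2, 959 bp, with a further cluster 1 region of 489 bp). None of the core genes had a region of cluster 4, 7, 8 or 9. Each is a count of 0 of 7 whose interval reaches 41.0%, against 13.6%, 10.5%, 25.5% and 17.9% of other genes. In all, 4 of 7 had one of clusters 2, 3 or 4. Among other genes with a region 35.9% had one of clusters 2, 3 or 4. This share stands beside the counts of every complex and list below.

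Accessory subunits, which surround the core and are needed for assembly and stability, had a region at 30 of 32 genes. Ndufb4b and Ndufb4c, the copies of Ndufb4 that lacked one, lay far from any region, while Ndufb4 itself had a cluster 6 region of 2369 bp. Cluster 3 regions lay at Ndufa2, Ndufa5, Ndufa6, Ndufa12, Ndufa13, Ndufab1, Ndufb6, Ndufc1 and Ndufs6. Ndufab1, the mitochondrial acyl carrier protein, had a cluster 3 region of 898 bp over its start and a cluster 1 region of 473 bp farther in. Cluster 4 regions lay at Ndufa3, Ndufb1, Ndufb7 and Ndufb10, and cluster 2 regions at Ndufa11, Ndufb2, Ndufb5 and Ndufv3. Ndufb11, on chromosome X, had the cluster 5 region. In all 17 of the 30 genes had a region of clusters 2, 3 or 4.

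Cluster 8 regions lay at Ndufa8, Ndufa10, Ndufa13, Ndufb3, Ndufb6, Ndufb8, Ndufb9, Ndufb10 and Ndufs5, and cluster 6 regions at Ndufa7, Ndufa9, Ndufa11, Ndufb4, Ndufb9 and Ndufs4. The phosphorylated subunit Ndufs4 had a single cluster 6 region of 607 bp. Cluster 1 regions lay at Ndufa1, Ndufab1, Ndufc2 and Ndufv3, cluster 7 regions at Ndufb5, Ndufb7 and Ndufb9, and cluster 9 regions at Ndufa2, Ndufa8 and Ndufa10. The cluster 9 regions were narrow, at 206 bp for Ndufa2, 394 bp for Ndufa8 and 200 bp for Ndufa10, and each was a further region of a gene whose nearest region was of cluster 3 or 8. Ndufb9 and Ndufv3 were the complex I genes with 3 regions. Those of Ndufb9 were of clusters 8, 6 and 7 (965, 432 and 330 bp), and those of Ndufv3 of clusters 2, 1 and 1 (835, 724 and 560 bp).

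All 8 complex I assembly factors had a region, 5 of them of clusters 2, 3 or 4. Ndufaf3, which acts with Ndufaf4 early in assembly, had the widest of the 138 assigned regions, a cluster 4 region of 4786 bp shared with Dalrd3, and a cluster 9 region of 247 bp near Impdh2. Ndufaf4 had a cluster 8 region of 876 bp. Ndufaf2 and Ndufaf8 had cluster 2 regions of 962 and 995 bp over their starts, and Ndufaf8 a further cluster 8 region of 511 bp. Ndufaf5 had a cluster 3 region of 1349 bp and Ndufaf7, a methyltransferase for a core subunit, a cluster 4 region of 777 bp. Ndufaf1 had a cluster 1 region of 669 bp, and Ndufaf6 a cluster 8 region of 887 bp with a cluster 9 region of 311 bp.

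The 4 subunits of complex II, succinate dehydrogenase, each had a region, of 4 different nearest clusters. Sdha, the flavoprotein that oxidises succinate, had a cluster 3 region of 1074 bp. Sdhb, the iron-sulphur subunit, had a cluster 2 region of 785 bp over its start and cluster 9 regions of 422 and 232 bp. The membrane anchors were Sdhc, with a cluster 4 region of 733 bp, and Sdhd, with a cluster 8 region of 979 bp.

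Complex III, which moves electrons from ubiquinol to cytochrome c, had a region at all 9 genes. One of clusters 2, 3 or 4 was present at 4 of them (44.4%, 13.7% to 78.8%), against 35.9% of other genes. Of its catalytic subunits, Cyc1, the cytochrome c1 heme protein, had a cluster 8 region of 1469 bp and Uqcrfs1, the Rieske iron-sulphur protein, a cluster 3 region of 965 bp. The core proteins Uqcrc1 and Uqcrc2 had regions of cluster 4 (1109 bp) and cluster 8 (1760 bp). Among the small subunits, Uqcrb had a cluster 4 region of 741 bp and Uqcrq a cluster 2 region of 1152 bp with a cluster 6 region of 387 bp. Uqcrh had a cluster 1 region of 2374 bp, the widest of that cluster at these genes, and Uqcr10 a cluster 5 region of 2299 bp. Uqcr11 had a cluster 8 region of 1471 bp and a cluster 1 region of 381 bp.

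Complex IV, cytochrome c oxidase, was the complex with most genes outside the rule, with a region at 15 of 19 genes. Of these 15 genes, 7 had one of clusters 2, 3 or 4 (46.7%, 21.3% to 73.4%), against 35.9% of other genes. Cox4i1, the large regulatory subunit of most tissues, had a cluster 6 region of 2732 bp and a cluster 7 region of 596 bp. Cox5b, a zinc-binding subunit, had a cluster 4 region of 656 bp centred 7.5 bp from the gene limit, and Cox7c a cluster 3 region of 889 bp. Cox6c had a cluster 1 region of 557 bp. Cox6b1, which faces the intermembrane space, had regions of clusters 8, 9 and 7, of 1245, 272 and 2201 bp.

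The assembly factors of complex IV had a region at 10 of 10 genes, 7 of them of clusters 2, 3 or 4. Copper delivery involves Cox17, with regions of clusters 3 and 9 (534 and 331 bp), Cox11, with a cluster 4 region of 1230 bp, and Cox19, with a cluster 8 region of 1541 bp. The heme A enzymes Cox10 and Cox15 had a cluster 5 region of 706 bp and a cluster 3 region of 940 bp. Cox18 and Cox20 help to insert and mature the mitochondrially encoded Cox2 protein. Cox18 had a cluster 2 region of 1161 bp, and Cox20 a cluster 4 region of 3786 bp shared with Hnrnpu and a cluster 5 region of 601 bp. Cox14 had regions of clusters 3 and 9 (2517 and 295 bp), Cox16 a cluster 4 region of 636 bp, and the supercomplex factor Cox7a2l a pair of cluster 8 regions of 922 and 856 bp.

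Complex V, the ATP synthase, had a region at 17 of 17 genes, and 10 had one of clusters 2, 3 or 4. Cluster 4 alone was present at 6: Atp5a1 and Atp5b, the alpha and beta subunits of the catalytic head, with 1090 and 1616 bp, Atp5pb of the outer stalk with 2277 bp, Atp5j, the coupling factor of the same stalk, with 2312 bp, Atp5md, which helps dimers form, with 930 bp, and the ring gene Atp5g2 with 3766 bp. These are 35.3% of the complex V genes (14.2% to 61.7%), against 13.6% of other genes with a region. Cluster 4 was present at 21.8% of mitochondrial ribosomal, 30.1% of cytoplasmic ribosomal and 20.5% of proteasome genes with a region. Atp5a1 also had a cluster 6 region of 410 bp. The central stalk genes were Atp5c1 (cluster 3, 1434 bp), Atp5e (cluster 3, 908 bp, and cluster 9, 224 bp) and Atp5d, whose regions caught by the rule were both of cluster 1 (612 and 836 bp).

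The 3 genes Atp5g1, Atp5g2 and Atp5g3 encode the same mature ring protein with different targeting peptides, and the regions at their starts were of different clusters. Atp5g1 had a cluster 2 region of 1339 bp, Atp5g2 the cluster 4 region, and Atp5g3 a cluster 8 region of 1058 bp over its start with a cluster 7 region of 439 bp. The outer stalk genes Atp5h and Atp5o had a cluster 8 region of 1160 bp and a cluster 1 region of 2079 bp; Atp5o links the stalk to the catalytic head. Of the small membrane subunits, Atp5k and Atp5l had cluster 8 regions of 787 and 1395 bp, Atp5j2 a cluster 3 region of 873 bp, and Atp5mpl regions of clusters 1 and 9 (775 and 426 bp).

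Tissue-restricted versions of complex IV subunits varied, and several had no region or only a narrow one where the broadly expressed partner had a region over its start. Cox8b, the muscle and brown fat version, had no region by the rule, while Cox8a had a cluster 2 region of 1116 bp over its start. Cox8c, the testis version, had none either. Cox6a2, of heart and skeletal muscle, had a cluster 9 region of 200 bp with its midpoint 2069.5 bp from a gene limit, and Cox6a1 a cluster 1 region of 1908 bp over its start. The testis gene Cox7b2 had a cluster 9 region of 200 bp away from its start, and Cox7b a cluster 6 region of 479 bp over its start.

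The other pairs did not split this way. Cox7a1, of heart and skeletal muscle, had a cluster 4 region of 687 bp over its start, and its partner Cox7a2 had the cluster 5 region over its start that the rule missed. Cox6b2, known from testis, had a cluster 2 region of 1683 bp over its start, which lay within reach of Fam71e2. Cox4i2, of lung, had regions of clusters 7, 1 and 1 (506, 517 and 1770 bp). Ndufa4l2, a hypoxia-induced relative of Ndufa4, had regions of clusters 7 and 3 (1498 and 1572 bp), each also near another gene, and Ndufa4 a cluster 3 region of 1416 bp. In all, a region lay over the start of 2 of the 4 restricted genes with a start entry (interval 6.76% to 93.2%). The count was 6 of 6 for broadly expressed partners, and the share was 61.2% for genes that are not respiratory. Within 2.5 kb of a gene limit, 6 of 8 restricted genes and 6 of 7 partners had a region, against 69.7% of other genes.

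The promoter windows of Cox8a and Cox8b are printed as an example pair. Each runs from 250 bases before to 50 bases after the start in RefSeq GRCm38.p6, read 5′ to 3′. Windows of the other pairs were not compared in this way. Whether promoter sequence goes with accessibility at these genes was not tested. Capitals mark ETS letters (CCGGAAG, here on the other strand as CTTCCGG) in Cox8a and the letters TATAAA in Cox8b. Counted from the annotated start, the ETS letters begin at -5 and 32 in Cox8a. In Cox8b TATAAA begins at 4, which is downstream of that start.
Cox8a promoter window, chr19:7217567-7217866, minus strand: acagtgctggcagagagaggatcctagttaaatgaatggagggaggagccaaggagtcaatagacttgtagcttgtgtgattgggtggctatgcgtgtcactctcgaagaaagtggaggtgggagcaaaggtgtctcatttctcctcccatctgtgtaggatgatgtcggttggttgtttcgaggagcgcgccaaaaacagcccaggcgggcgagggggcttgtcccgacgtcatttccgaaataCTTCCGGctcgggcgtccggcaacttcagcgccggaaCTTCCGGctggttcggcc
Cox8b promoter window, chr7:140900397-140900696, minus strand: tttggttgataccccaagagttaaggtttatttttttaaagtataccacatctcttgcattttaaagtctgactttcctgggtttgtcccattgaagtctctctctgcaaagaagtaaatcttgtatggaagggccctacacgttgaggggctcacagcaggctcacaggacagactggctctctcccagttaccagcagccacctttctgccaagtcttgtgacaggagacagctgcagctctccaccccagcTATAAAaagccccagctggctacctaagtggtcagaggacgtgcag
The Cox8a window has a GC content of 56.0% and 19 CpG dinucleotides, and lies in the cluster 2 region chr19:7217234-7218349. The Cox8b window has a GC content of 48.3% and 2 CpG dinucleotides, and no region covers its start.

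Regions over the starts of respiratory genes had a larger median width than assigned regions away from a start, and the clusters stood in other proportions. Among the assigned regions of genes with a start entry, 78 covered a start, with a median width of 1006.5 bp, and 29 did not, with a median of 439 bp. Clusters 2, 3, 4 and 8 made up 82.1% of the regions over a start and 20.7% of the others. Clusters 7 and 9 made up 0 of 78 regions over a start and 44.8% of the 29 regions away from it. The same split at other genes gave medians of 1185 and 501 bp, 63.5% and 21.2% in clusters 2, 3, 4 and 8, and 7.61% and 41.1% in clusters 7 and 9.

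Over all regions, the median width at respiratory genes was 888 bp (quartiles 563.5 and 1429.5 bp), against 931 bp (485 and 1480 bp) at other genes, and the 95% interval of 821 to 979 bp for the respiratory genes included the value of the other genes. After Ndufaf3, Cox20 and Atp5g2, the widest regions were those of Cox4i1 and Ndufb6, at 2732 and 2677 bp. The narrowest were those of Cox6a2, Cox7b2 and Ndufa10, at 200 bp, which is the smallest width in the table, followed by Ndufa2 and Atp5e, and all 5 were of cluster 9. Of 29 regions of at most 500 bp 18 were of clusters 7 or 9, and of 15 regions over 2000 bp 5 were of cluster 4. Over the whole table clusters 7 and 9 had median widths of 345 and 292 bp and cluster 4 one of 1366.5 bp. At the 33 genes with more than 1 region, the nearest region had a median width of 959 bp and was of cluster 9 at 0 genes. The 38 further regions had a median width of 452.5 bp, with 12 of cluster 9 and 8 of cluster 1. These counts by width and by nearness were not made at other genes. Of all regions at other genes, 21.9% were of cluster 1, 9.24% of cluster 4, 8.19% of cluster 7 and 14.4% of cluster 9. Median widths by complex ranged from 759 bp for complex II, with 6 regions, to 1152 bp for complex III, with 11 regions.

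**Figure D3:**
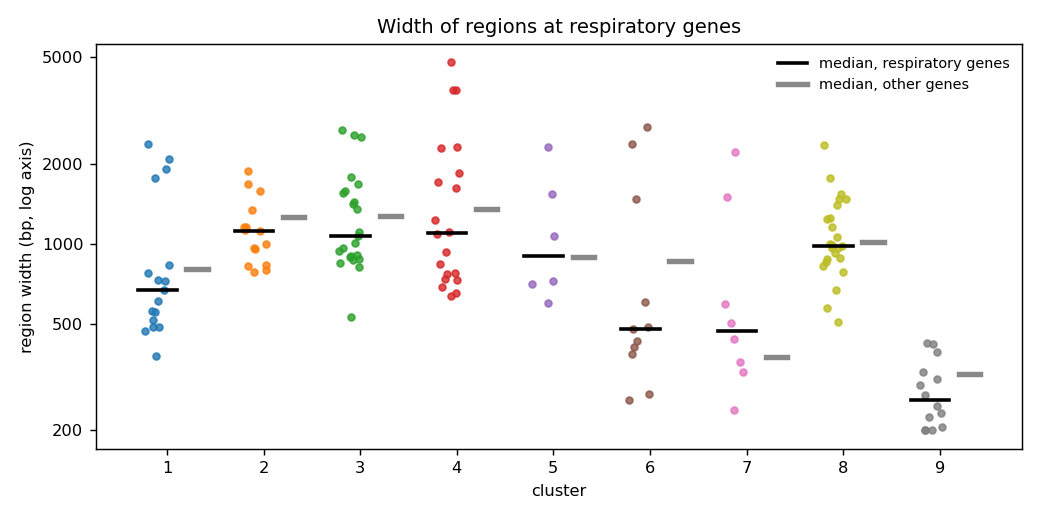
Width in bp (log axis) of each of the 138 regions at respiratory genes, by cluster, with black lines for their median and grey lines for the median at other genes. Cluster 9 regions lie lowest, with a median of 259.5 bp, against 325.5 bp at other genes, and clusters 2, 3 and 4 have medians of 1116, 1074 and 1099.5 bp, against 1258, 1275 and 1346 bp.

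Counted over starts alone, clusters 2, 3 or 4 covered 48 of 82 respiratory genes (58.5%, 47.1% to 69.3%), against 40.8% of other genes. Singly, cluster 2 covered 13 of 82 (15.9%, 8.72% to 25.6%), against 10.5%, cluster 3 covered 19 (23.2%, 14.6% to 33.8%), against 15.7%, and cluster 4 covered 16 (19.5%, 11.6% to 29.7%), against 14.9%. Each of these 3 intervals included the share of the other genes, so at starts the interval of cluster 3 no longer lay above it. Cluster 1 covered 6 of 82 (7.32%, 2.73% to 15.2%), against 18.2%. It covered 5.97% of mitochondrial ribosomal, 6.45% of cytoplasmic ribosomal and 6.67% of proteasome genes with a start in a region. Cluster 5 covered 5 (6.10%, 2.01% to 13.7%), against 4.92%, cluster 6 covered 6 (7.32%), against 6.03%, and cluster 8 covered 17 (20.7%, 12.6% to 31.1%), against 24.6%. Clusters 7 and 9 covered 0 of 82, a count whose interval reaches 4.40%, against 8.14% of other genes. They covered 1 of 67 mitochondrial ribosomal, 1 of 62 cytoplasmic ribosomal and 2 of 30 proteasome genes, so low counts were not particular to respiratory genes. Other sets of broadly expressed genes were close to the respiratory genes. The share in clusters 2, 3 or 4 was 50.7% for mitochondrial ribosomal proteins (34 of 67), 58.1% for cytoplasmic ribosomal proteins (36 of 62) and 56.7% for proteasome subunits (17 of 30), each inside the interval of the respiratory genes. Cluster 8 was the most frequent over starts of mitochondrial ribosomal proteins (34.3%) and proteasome subunits (30.0%), and cluster 3 over those of respiratory genes (23.2%) and cytoplasmic ribosomal proteins (27.4%).

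**Figure D4:**
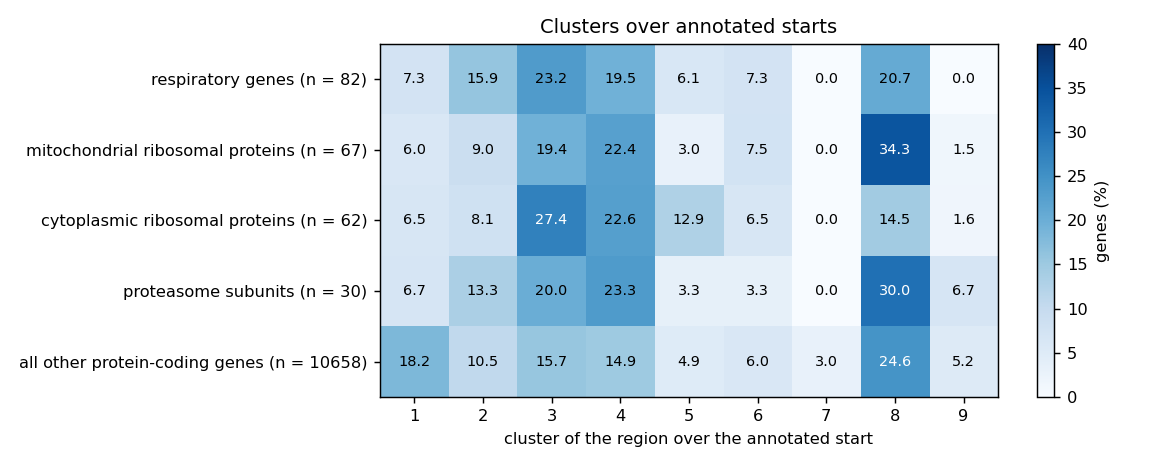
Percent of genes whose annotated start lies in a region of each cluster, for respiratory genes (top, n = 82), 3 other sets of broadly expressed genes and all other protein-coding genes (bottom, n = 10658), with darker blue for a higher percent. A gene with more than 1 start can count for several clusters. Clusters 7 and 9 are at 0 in the respiratory genes, against 2.99 and 5.16% in other genes. Cluster 7 is also at 0 in the 3 other sets.

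By the rule on gene limits, a region was present at 78 of 78 mitochondrial ribosomal genes, 83 of 84 cytoplasmic ribosomal genes and 39 of 39 proteasome genes. Median region widths were 888 bp at respiratory genes, 832.5 bp at mitochondrial ribosomal genes, 784 bp at proteasome genes and 1405.5 bp at cytoplasmic ribosomal genes. Among 36 further assembly factors and carriers of the pathway, 35 had a region, and 18 had one of clusters 2, 3 or 4. Atpaf2, an assembly factor of the ATP synthase head, was the exception by midpoint, and with any overlap of a region with the window all 36 had one. Cycs, the somatic cytochrome c gene that links complexes III and IV, had a cluster 2 region of 1040 bp, and Surf1, an assembly factor of complex IV, had regions of clusters 1 and 4.

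Of 22 regulators of respiratory and mitochondrial genes 20 had a region, 11 of them of clusters 2, 3 or 4 (55.0%, 31.5% to 76.9%). Among genes that are not respiratory 69.7% had a region, and 35.9% of those had one of these clusters. Gabpb1, a partner of GABPA, and Mterf1a, a mitochondrial termination factor, had no region by the rule. Nrf1 had regions of clusters 8 and 9, Gabpa of clusters 4 and 7, and Yy1 of cluster 1. All 13 genes of the tricarboxylic acid cycle had a region, 8 of them of clusters 2, 3 or 4. Of 15 glycolysis genes 13 had one, 9 of them of these clusters, and the exceptions by the rule, Hk1 and Ldha, had a start inside a region, as did all 15.

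Many respiratory genes share the region over their start with the start of a neighbour on the opposite strand. The order of the paired starts was not checked, so genes that run towards each other would also count. A start of another protein-coding gene on the opposite strand lay in the same region at 26 of 82 genes (31.7%, 21.9% to 42.9%), against 15.6% of other genes with a start in a region. The median distance between the paired starts was 117.5 bp. The share was 40.3% for mitochondrial ribosomal proteins, 20.0% for proteasome subunits and 12.9% for cytoplasmic ribosomal proteins. Clusters 2, 3 or 4 covered 16 of the 26 paired starts (61.5%) and 32 of the 56 unpaired ones (57.1%), against 64.9% and 36.4% of paired and unpaired starts of other genes.

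Of the 26 partners, Gabpa, Timm8b and Mrpl47 were picked out after the names were seen, and partners of other genes were not sorted in this way. Atp5j starts 148 bp from Gabpa, which encodes the DNA-binding subunit of GABP, in a cluster 4 region of 2312 bp. Sdhd starts 52 bp from Timm8b, a chaperone of mitochondrial protein import, in its cluster 8 region, and Ndufb5 starts 308 bp from Mrpl47, a mitochondrial ribosomal protein, in a cluster 2 region of 1574 bp. The regions of Ndufs6 and Uqcrb also lay within reach of the mitochondrial genes Mrpl36 and Mterf3. The starts nearest to each other were those of Ndufa7 with Rps28 at 10 bp, Ndufa1 with Rnf113a1 at 16 bp, Ndufs3 with Kbtbd4 at 19 bp and Cox15 with Cutc at 23 bp. The paired starts farthest apart, Ndufaf3 with Dalrd3 at 2456 bp, lay in a region of 4786 bp.

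The other pairs were Atp5c1 with Kin, Atp5h with Kctd2, Atp5md with Pdcd11, Atp5pb with Wdr77, Cox11 with Stxbp4, Ndufa4 with Phf14, Ndufa8 with Morn5, Ndufa11 with Vmac, Ndufa13 with Tssk6, Ndufaf2 with Ercc8, Ndufaf5 with Esf1, Ndufaf8 with Tepsin, Ndufb1 with Cpsf2, Ndufb3 with Fam126b, Ndufb11 with Rbm10, Sdha with Ccdc127, Uqcr10 with Zmat5 and Uqcrh with Lrrc41. Regions were also within reach of another gene, without a counted pair of opposed starts, at genes that included Atp5a1 (Haus1), Atp5d (Cbarp), Atp5e (Prelid3b and Tubb1), Atp5l (Ube4a), Cox14 (Gpd1) and Cox4i1 (Emc8 and Gm27021). The same held, among others, at Ndufa2 (Ik and Tmco6), Ndufa3 (Oscar), Ndufa5 (Asb15), Ndufa12 (Nr2c1), Ndufaf1 (H3f3c), Ndufaf7 (Cebpz), Ndufb6 (Smim27 and Topors), Ndufb9 (Tatdn1 and Mtss1), Ndufb10 (Rps2 and Rnf151), Ndufs1 (Eef1b2), Ndufs8 (Aldh3b1 and Tcirg1), Ndufv3 (Wdr4) and Uqcrq (Gdf9), and at a far region of Cox6b1 (Upk1a). A region shared in this way cannot be assigned to a single gene.

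The windows of Atp5j and Sdhd are given as examples of paired starts, again from RefSeq GRCm38.p6 and 5′ to 3′ on the strand of the respiratory gene. Capitals mark the ETS letters CCGGAAG or their reverse complement CTTCCGG.
Atp5j promoter window, chr16:84834927-84835226, minus strand: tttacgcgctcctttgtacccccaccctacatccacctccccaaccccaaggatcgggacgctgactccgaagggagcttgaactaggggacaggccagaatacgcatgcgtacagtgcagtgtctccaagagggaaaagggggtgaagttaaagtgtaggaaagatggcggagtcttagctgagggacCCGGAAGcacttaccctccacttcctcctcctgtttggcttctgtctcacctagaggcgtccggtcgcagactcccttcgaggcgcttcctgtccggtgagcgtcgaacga
Sdhd promoter window, chr9:50603800-50604099, minus strand: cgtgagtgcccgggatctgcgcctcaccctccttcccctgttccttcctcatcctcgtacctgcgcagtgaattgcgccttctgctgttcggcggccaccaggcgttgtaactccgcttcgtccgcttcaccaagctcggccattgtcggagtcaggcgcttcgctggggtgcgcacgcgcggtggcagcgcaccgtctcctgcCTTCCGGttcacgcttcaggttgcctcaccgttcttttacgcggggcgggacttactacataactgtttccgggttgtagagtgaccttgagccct
Of the 2 start entries of Atp5j the downstream one is shown. The window of Atp5j has a GC content of 57.7% and 18 CpG dinucleotides, and that of Sdhd 62.0% and 29.

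Letters known as binding motifs of respiratory gene regulators were counted on both strands in the 300-base promoter windows. The NRF1 motif was the run of 10 letters in capitals in the stretches printed with the NRF1 genes, and the other letters were CCGGAAG for ETS factors such as GABP, ATGGCGGC for YY1, GGGCGG for Sp1, TGACGTCA for the cyclic AMP response element (CRE) and TATAAA for the TATA box. Over all 32851 windows, of every gene type, the shares were 0.971% for NRF1, 8.86% for ETS, 2.24% for YY1, 35.7% for Sp1, 1.79% for CRE and 13.6% for TATA. Matches of different motifs overlapped in 2 cases among the 124 matches at respiratory genes. A match describes letters and is not evidence of binding.

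With windows limited to starts inside a region, the NRF1 letters stood in 7 of 88 respiratory windows (7.95%), against 2.14% of 12509 windows of other genes. ETS letters stood in 25 (28.4%), against 17.9%, and YY1 letters in 10 (11.4%), against 4.82%. Sp1 letters stood in 41 (46.6%), against 69.2%, CRE letters in 4 (4.55%), against 3.3%, and TATA letters in 8 (9.09%), against 5.88%. The median GC content was 59.0% at these respiratory windows, against 62.3% at the other genes, with 20 and 22 CpG dinucleotides. Whether base composition accounts for any of these differences was not tested.

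Mitochondrial ribosomal proteins also had ETS letters in 34.7% and YY1 letters in 16.0% of windows, with NRF1 letters in 4.00%. Cytoplasmic ribosomal proteins had ETS letters in 35.5% and proteasome subunits in 32.4%. Sp1 letters stood in 52% of mitochondrial ribosomal, 59.2% of cytoplasmic ribosomal and 55.9% of proteasome windows. Each of these was also below the 69.2% of other genes with the start in a region. TATA letters stood in 6.67%, 10.5% and 11.8% of the windows of these sets. The shares of these sets are over all their windows, whether or not the start lay in a region. NRF1, ETS or YY1 letters stood at 35 of the 85 respiratory genes, and at least 2 of the 3 at 5 genes. Over all 91 respiratory windows the share with any of the 3 was 40.7%, against 23.2% of other windows with a start in a region.

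ETS letters stood at 24 genes of all 5 complexes, among them Sdhb and Sdhd of complex II, Uqcrh and Uqcr11 of complex III, Cox6a1, Cox6b1 and Cox8a of complex IV, and Atp5e, Atp5h, Atp5j, Atp5k, Atp5l and Atp5md of complex V. YY1 letters stood at Cox10, Cox20, Ndufa7, Ndufa9, Ndufaf8, Ndufb5, Ndufs4, Ndufs6 and Ndufs7, where Ndufa7 counts with both of its start entries, whose windows overlap. CRE letters stood at Ndufa10, Ndufa11, Ndufb2 and Uqcrfs1.

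**Figure D5:**
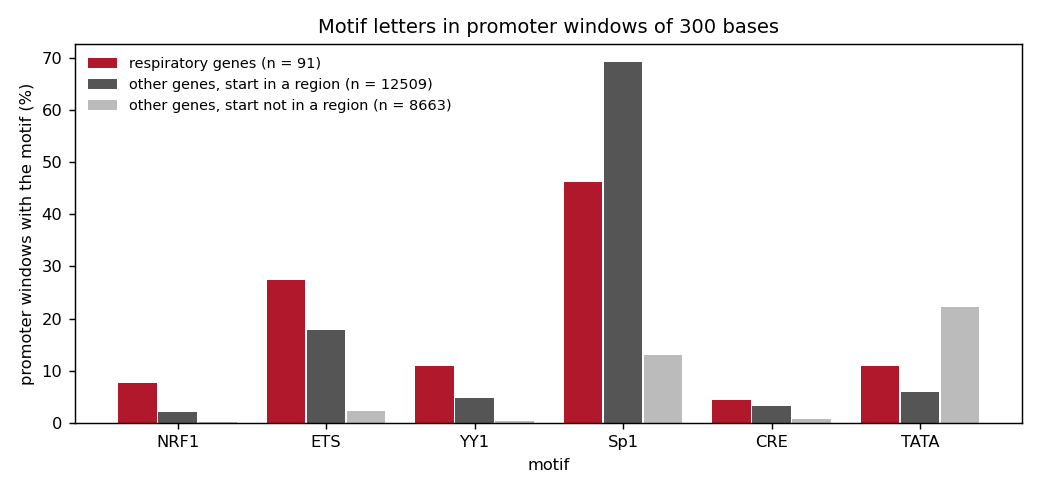
Percent of promoter windows of 300 bases that hold each motif, for respiratory genes (left bars, 91 windows), other genes with the start in a region (middle bars, 12509) and other genes with the start outside any region (right bars, 8663). NRF1 letters stand in 7.69% of respiratory windows, against 2.14 and 0.0923%, and Sp1 letters in 46.2%, against 69.2 and 12.9%. Sp1 letters stand in 52% of mitochondrial ribosomal, 59.2% of cytoplasmic ribosomal and 55.9% of proteasome windows.

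The 7 genes with the full NRF1 letters belong to complex I or its assembly (Ndufa11, Ndufaf4, Ndufaf5), complex III (Uqcrc1), complex IV (Cox6a1) and complex V (Atp5g2, Atp5k), and their starts lay in regions of clusters 1, 2, 3, 4 and 8. The stretches around the letters are shown because NRF1 is the factor most often named for these genes. They come from RefSeq GRCm38.p6, run 5′ to 3′ on the strand of the gene, and have the NRF1 letters in capitals.
Atp5g2, chr15:102671065-102671104, minus strand: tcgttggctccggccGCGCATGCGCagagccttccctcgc
Atp5k, chr5:108434425-108434464, minus strand: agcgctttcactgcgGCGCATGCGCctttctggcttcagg
Cox6a1, chr5:115349096-115349135, minus strand: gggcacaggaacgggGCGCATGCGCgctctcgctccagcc
Ndufa11, chr17:56717687-56717726, plus strand: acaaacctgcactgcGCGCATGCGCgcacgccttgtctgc
Ndufaf4, chr4:24897955-24897994, plus strand: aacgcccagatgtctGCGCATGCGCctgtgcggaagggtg
Ndufaf5, chr2:140170647-140170686, plus strand: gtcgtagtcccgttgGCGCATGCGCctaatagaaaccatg
Uqcrc1, chr9:108936663-108936697, plus strand: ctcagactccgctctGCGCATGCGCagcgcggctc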

How the data were processed

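ACC-seq was run on 6 libraries of R1 mouse embryonic stem cells, 2 per group. Per the submitters' processing notes, the tools were Bowtie2 2.3.3.1, cutadapt 1.18, SAMtools 1.6 and Picard, and the build was mm10. The table deposited by the authors holds region positions and cluster names, with 0 columns of values per library; how regions were called and clustered, and the depth and its precision, are not given in the sources used here. Contrasts of the groups, planned for counts or signal, were therefore not run.

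Positions, which start at 0 in the table, were counted from 1. Gene limits and promoter sequences came from RefSeq GRCm38.p6, the same coordinates as mm10. Respiratory genes were matched by symbol, and 85 of 106 had an entry in the promoter table. A region counted once for every gene whose limit lay within 2.5 kb of its midpoint. Shares carry exact Clopper-Pearson 95% intervals and medians order-statistic intervals. No test was run.

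Respiratory genes are named with their clusters, and some results at single genes, while counted in the totals, are not reported here. Values are given for the core subunits, isoform pairs, members with 3 regions, the widest and narrowest regions and those nearest to the window limit; widths of other members were added after values were seen. The genes and lists were chosen with earlier results of these data known. Other windows, starts only, overlap, subunits only, unshared regions and further settings were tried. The counting was tested on simulated regions. Software was SciPy 1.17.1, matplotlib 3.10.9, pandas 2.3.3 and numpy 2.4.6 under Python 3.11.15.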

Additional observations from a re-analysis of the deposited data

How the results depend on the processing

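No paired analysis was possible because the table holds no value per library. For the same reason leaving out replicates, other normalisations and low-value filters were not run. Of 239 recomputed values 204 stayed within the interval of the reported value and 35 moved outside it. Here and in the next paragraph, values at starts or for the start only count regions with a midpoint within 2.5 kb of a start. Such a region need not cover the start, so these values differ from those for regions over a start given above. The share of respiratory genes with a region was 78.3% with a 500 bp window (other genes 49.1%) and 56.6% without shared regions (53.6%), with values of other genes in parentheses here and below. Cluster 1 reached 26.2% of covered genes with a 5 kb window (35.4%). Without shared regions cluster 3 stood at 13.3% (11.4%), cluster 4 at 11.7% (10.6%) and clusters 2, 3 or 4 at 36.7% (28.2%); over distinct regions the last was 42% (25%). With windows of 500 bp and 1 kb, the start only and the nearest region only, cluster 7 stood at 2.41% (4.15%), 3.19% (5.69%), 1.20% (6.18%) and 3.00% (5.15%). In the same settings cluster 9 stood at 0% (8.19%), 1.06% (10.4%), 2.41% (10.6%) and 2.00% (9.89%). The median width was 991 bp at starts (1059 bp), 773 bp without shared regions (906 bp) and 1006.5 bp for the widest region of each gene (1164 bp). The share with a shared region was 39.8%, 42.6% and 74.8% with windows of 500 bp, 1 kb and 5 kb, and 32.5% at starts (20.0%, 24.4%, 49.9% and 17.1%).

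In settings added after seeing the data, the share with a region under a 500 bp window was 82.1% for mitochondrial ribosomal, 71.4% for cytoplasmic ribosomal, 84.6% for proteasome, 68.2% for regulator, 53.3% for glycolysis and 70.6% for complex V genes. Cytoplasmic ribosomal genes had 92.9% with 1 kb and 92.2% at starts, further assembly factors and carriers 100% with 5 kb, overlap or starts, glycolysis genes 100% at starts and complex IV genes 94.7% with 5 kb. The settings for shared regions and for clusters 2, 3 or 4 together were also added then. Respiratory genes stayed above other genes in every setting run for coverage, shared regions and clusters 2, 3, 4 and the 3 together, and below for clusters 1, 7 and 9; cluster 5 changed sides in 2 settings (3.33%, against 5.22%, without shared regions and 4.88%, against 5.5%, for subunits only), and clusters 6 and 8 and the median width in 1 each. The cause of these shifts was not tested. Unknown depth limits what a missing region means.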

Other observations

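Farther out, between 2.5 and 50 kb from a gene limit, respiratory genes had a median of 7 regions each (quartiles 4 and 11), against 6 (2 and 10) for other genes. Cox7b2, the testis version of a complex IV subunit, had 0 such regions. Cox4i2, the lung version of another, and Atp5a1, the alpha subunit of ATP synthase, had most, with 17 each. Of the 768 distinct regions in that range around respiratory genes, 22.3% were of cluster 1, 18.8% of cluster 9 and 15.4% of cluster 7, against 19.3%, 26.3% and 18.8% around other genes. Clusters 2, 3 and 4 made up 3.39%, 5.47% and 5.34%, against 2.3%, 3.62% and 3.48%. Genes near each other share distal regions, and no test was run.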
